A study of Mus musculus with 6 samples.

Results

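Accessible chromatin around 5 zinc finger transcription factor genes, Myt1, Myt1l, St18, Insm1 and Klf7, was described in embryonic mouse retina. A peak belonged to one of these genes if its summit lay inside the gene, or if an end of that gene was the nearest end of any protein-coding gene and lay within 100 kb (gene positions from RefSeq for GRCm38.p6, the build of the peak lists being GRCm38). Overlapping peaks of the 6 libraries were merged into regions, and 35 of 46780 regions belonged to the 5 genes: 10 each to Myt1l and Klf7, 6 to Myt1, 5 to St18 and 4 to Insm1. The samples were retinas of C57BL/6 embryos at E14.5. They were assayed by ATAC-seq, a method that maps accessible DNA by the insertions of a transposase. The 3 wild-type libraries came from Atoh7 +/+ animals and the 3 SE/SE libraries from animals that carry a mutated Atoh7 shadow enhancer on both alleles, with each library made from the pair of retinas of a single animal. Atoh7 encodes a basic helix-loop-helix factor of retinal neurogenesis, and shadow enhancers are secondary elements whose activity partly repeats that of a primary one. The whole retina was assayed, so a region open in fewer cells and a region less open in each cell cannot be told apart.

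Myt1, Myt1l and St18 form one small family of CCHC-type zinc finger proteins that act mostly as transcriptional repressors in differentiating neurons. Myt1 is switched on by proneural factors in neuronal precursors and opposes Notch signalling. Myt1l represses non-neuronal genes and is used in the conversion of fibroblasts into neurons, and St18 (also called Myt3) is their close relative. Insm1 is an intronless gene for a SNAG-domain repressor that is transient in newly born neurons and neuroendocrine cells. Klf7, a Krüppel-like factor, is expressed in postmitotic neurons and has been tied to axon growth.

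The sequences before listed transcription starts of Myt1, Myt1l and Klf7 are shown first. The RefSeq table for GRCm38.p6 lists 9 starts for 3 of the 5 genes: 3 for Myt1, 5 for Myt1l and 1 for Klf7. Insm1 and St18 are not listed in it. The 250 bases before the start lay in a region with a peak in 6 of 6 libraries for 2 of the 9 starts, and in none for 6. For 1 start, of Myt1l, 133 of the 250 bases lay in a region with a peak in some libraries. The shares over all listed windows were not computed, so these counts are not results about the 5 genes. The 4 windows below include the 3 that a region covered in whole or in part. For contrast, they also include the window of the first Myt1l start, which lay between regions. They read 5′ to 3′ on the gene's own strand, and capitals mark matches on either strand to the CCAAT box (CCAAT), the GC box (GGGCGG), a KLF motif (CCACCC), a MYT motif (AAGTTT), the E-box (CANNTG), the CRE (TGACGTCA) and the TATA box (TATAAA).
Myt1 start, chr2:181763082-181763331, plus strand, peak in 6 of 6 libraries: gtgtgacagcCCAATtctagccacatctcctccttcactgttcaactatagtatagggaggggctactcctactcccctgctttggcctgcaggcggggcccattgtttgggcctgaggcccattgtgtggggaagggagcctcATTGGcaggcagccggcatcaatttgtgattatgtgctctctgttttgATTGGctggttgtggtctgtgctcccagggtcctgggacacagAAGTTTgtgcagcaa
Klf7 start, chr1:64121390-64121639, minus strand, peak in 6 of 6 libraries: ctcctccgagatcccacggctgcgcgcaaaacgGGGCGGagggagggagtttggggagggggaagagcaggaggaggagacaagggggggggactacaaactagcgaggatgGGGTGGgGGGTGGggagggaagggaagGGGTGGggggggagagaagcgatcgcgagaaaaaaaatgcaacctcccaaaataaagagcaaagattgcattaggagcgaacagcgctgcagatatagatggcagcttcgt
Myt1l start inside the gene, chr12:29534655-29534904, plus strand, peak in 3 of 6 libraries: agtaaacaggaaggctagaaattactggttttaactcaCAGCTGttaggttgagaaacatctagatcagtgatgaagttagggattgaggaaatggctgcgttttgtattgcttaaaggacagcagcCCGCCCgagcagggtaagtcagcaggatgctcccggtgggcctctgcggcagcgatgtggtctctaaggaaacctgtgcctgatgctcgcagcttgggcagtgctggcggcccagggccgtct
Myt1l first start, chr12:29528134-29528383, plus strand, peak in 0 of 6 libraries: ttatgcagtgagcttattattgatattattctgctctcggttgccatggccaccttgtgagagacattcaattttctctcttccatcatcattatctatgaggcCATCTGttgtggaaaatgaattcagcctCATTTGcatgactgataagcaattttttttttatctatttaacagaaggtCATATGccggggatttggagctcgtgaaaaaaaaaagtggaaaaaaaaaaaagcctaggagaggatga

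The Myt1 window holds 3 CCAAT matches and 1 AAGTTT match, where 33.8% and 12.8% of the 32851 listed mouse windows of this length hold at least 1. The Klf7 window holds 3 CCACCC matches and 1 GGGCGG match, against 28.1% and 32.7% of all windows with a match. The partly covered Myt1l window holds 1 CAGCTG match, which lies before the region, and 1 GGGCGG match inside it. CAGCTG, a form of the E-box and so also counted among CANNTG, is found in 13.0% of all windows. The uncovered Myt1l window holds 3 CANNTG matches (66.2% of all windows have one). Its GC content was 36.8%, against 54.8%, 59.2% and 53.2% in the Myt1, Klf7 and partly covered Myt1l windows and a median of 52.4% over all windows. These matches describe the letters of the windows. The search also covered AAAGTTT (which contains AAGTTT; 4.20% of all windows), CAGATG (14.4%), GGGTGTG (6.93%), TAATTA (4.84%), TAATCC (6.25%), TGACGTCA (1.55%) and TATAAA (12.4%), and of these the 4 windows hold only 1 match, to CAGATG in the uncovered Myt1l window.

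The libraries differed in how many peaks were listed. Wild-type libraries had 27873 to 34797 peaks and SE/SE libraries 39115 to 44242, and every SE/SE library exceeded every wild-type library. The labels give 17, 18 and 19 PCR cycles for wild type and 15, 16 and 16 for SE/SE, so amplification and genotype cannot be told apart. The read depth is unknown, since the lists hold no read counts. In 6 of 6 libraries, 6 of 7 progenitor genes and 6 of 7 ganglion cell genes of the neural retina had a peak at most 1 kb from either end. The same held for 55.6% of all 21887 protein-coding genes and for 4 of 5 mesenchyme genes, so these counts do not identify the tissue. Of markers of other cells the dissection could hold, such a peak was found per library for 3 of 6 pigment epithelium genes and 1 of 5 lens genes in each of the 6 libraries, for 1 of 5 endothelial genes in each wild-type library and 2 in each SE/SE library, for 0 of 5 microglia and blood genes in each library, and for 4 to 5 of 5 mesenchyme genes in each wild-type library and 5 in each SE/SE library. The lens gene was Mip, to which 0 regions belonged, so the peak near its end belonged to another gene. The part of these other cells in the results below was not tested.

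Of the 35 regions, 19 had a peak in 6 of 6 libraries (54.3%, where 52.1% of all 46780 regions did), 3 had one in all SE/SE and no wild-type library (8.57%, where 8.23% of all regions did), and 0 had one in all wild-type and no SE/SE library (0.0321% of all regions). The other 13 had a peak in another combination of libraries. The count of 3 was 5 without wild type 2, and also 5 without SE/SE 1. In 16 regions more SE/SE than wild-type libraries had a peak (45.8% of all regions), and in 0 regions more wild-type libraries did (0.923%). With the same number of peaks taken from each library, as described with the genotype comparison, there were 3 regions of either kind among 25 (16.4% and 7.47% of all). Each of these shares was near that over all regions, so they are not results about the 5 genes. The 19 shared regions had a median width of 405 bp, against 153 bp for the 13 and 148 bp for the 3 SE/SE-only regions. Over all regions the median width was 604.5 bp for those in 6 of 6 libraries and 187 bp for SE/SE-only ones. In all, 23 of the 35 regions lay inside a gene, and 5 had their summit within 1 kb of a gene end.

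**Figure D1:**
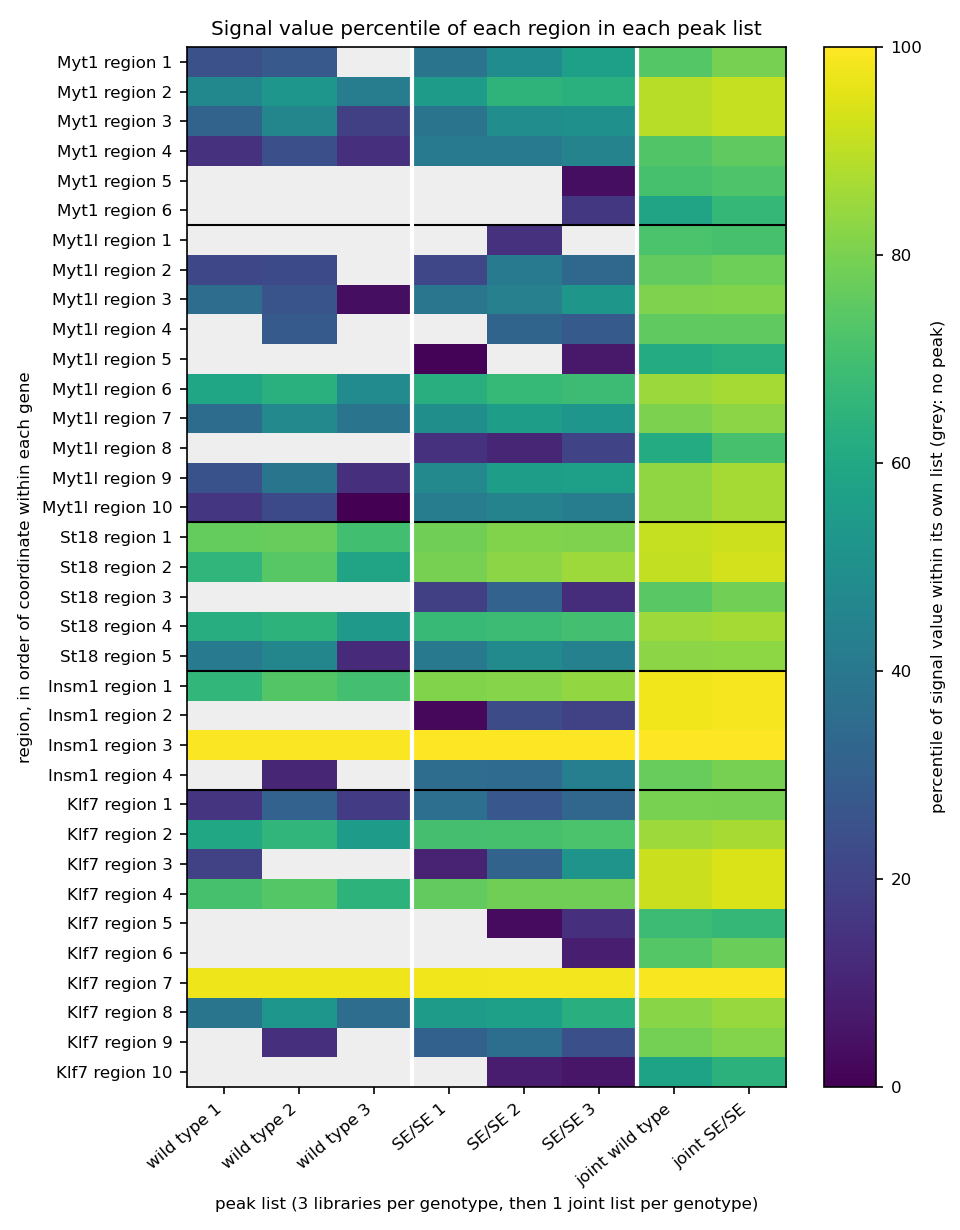
Percentile of the authors' signal value within each peak list (colour) for the 35 regions (rows, numbered by coordinate within each gene) in the 6 libraries and the 2 joint genotype lists (columns), with grey where no peak was listed. Region 3 of Insm1 and region 7 of Klf7 lie above percentile 97 in all 8 lists, and grey cells are most frequent in the wild-type columns.

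Strength is given below as the authors' signal value and as its percentile within the same list, where 100 is the strongest peak. Signal values of different libraries have no known common scale, and percentiles of lists of unequal length show no change between libraries, so both describe a region inside its own list.

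Insm1 had the strongest region of the 5 genes. The gene (ID 53626, chr2:146221997-146225020) is covered over its lower-coordinate part by a region at chr2:146220663-146223755, 3093 bp wide, with its summit 195 bp outside the gene. The signal values there were 3060, 3503 and 2821 in wild type 1, 2 and 3 and 4557, 5458 and 5166 in SE/SE 1, 2 and 3. They stood at percentiles 99.5, 99.5 and 99.4 and 99.8, 99.9 and 99.9, so the region was among the strongest of each library. It was listed as 1 peak in every library except wild type 2, which had 2, and its peaks covered 2610 to 3093 bp.

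The other 3 Insm1 regions lay outside the gene. A region at chr2:146218108-146218856, 3384 bp before the lower gene end, had a peak in 6 of 6 libraries. Its signal values were 481, 702 and 566 in wild type 1 to 3 (percentiles 66.3, 73.3 and 70.0) and 1039, 1173 and 1239 in SE/SE 1 to 3 (81.0, 81.9 and 83.8). Between it and the gene, a region at chr2:146219170-146219518 had a peak in all SE/SE and no wild-type libraries, where the signal was 23.2, 73.3 and 61.3 (percentiles 2.24, 22.9 and 19.5). It thus ranked near the bottom of the SE/SE 1 list. In each joint list, 1 peak spanned this region and the stronger one beside it, with an authors' signal value of 11641 in wild type and 16029 in SE/SE (percentiles 97.7 and 98.8 of their lists).

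On the other side, 1704 bp beyond the upper gene end, a region at chr2:146226567-146226844 was listed in wild type 2 and in every SE/SE library. The signal value was 37.3 in wild type 2 (percentile 10.9) and 129, 127 and 176 in SE/SE 1 to 3 (percentiles 35.6, 35.1 and 43.1). Both joint lists had a peak there, with signal values of 1615 in wild type and 2250 in SE/SE (percentiles 77.0 and 79.7).

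Myt1 had its shared regions at the start of the gene (ID 17932, chr2:181763332-181827775), with summits at most 1433 bp from its lower-coordinate end. The region at chr2:181763061-181763497 covers the first listed start, whose window is printed above, and had signal values of 199, 263 and 168 in wild type 1 to 3 (percentiles 46.8, 52.5 and 42.0) and 303, 508 and 457 in SE/SE 1 to 3 (54.7, 64.8 and 63.5). It stood near the middle of each list, far below the Insm1 region over the lower gene end. Next to it, inside the gene, were chr2:181763912-181764203 and chr2:181764677-181764893, both with a peak in 6 of 6 libraries. The signal values of the former were 102, 193 and 55.9 in wild type and 145, 237 and 242 in SE/SE (percentiles 18.8 to 46.0 and 38.4 to 50.3). Those of the latter were 43.6, 72.4 and 43.6 in wild type and 163, 167 and 188 in SE/SE (percentiles 13.8 to 24.3 and 41.1 to 44.6).

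The remaining Myt1 regions were listed in only some libraries. One at chr2:181759125-181759395, 4070 bp before the gene, was lacking in wild type 3 alone, with signal values of 73.8 and 85.7 in wild type 1 and 2 and 146, 234 and 320 in SE/SE 1 to 3. In SE/SE 3 alone, a peak at chr2:181767116-181767214 had a signal value of 25.6 (percentile 3.77) and one at chr2:181775844-181775995 had 51.7 (percentile 16.0). The former had its summit 152 bp from the second listed Myt1 start. Both had a peak in each joint list.

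Myt1l had a weak region at its lower-coordinate end. This region of the gene (ID 17933, chr12:29527590-29923216), at chr12:29527559-29527803, had a peak in 5 of 6 libraries and was lacking in wild type 3. Its signal values were 63.3 and 66.9 in wild type 1 and 2 (percentiles 21.6 and 22.6) and 66.8, 167 and 117 in SE/SE 1 to 3 (21.2, 41.4 and 33.6). A region covering a listed start, with its summit 7281 bp inside the gene, at chr12:29534772-29534958, had peaks of 86.6 in wild type 2, 111 in SE/SE 2 and 93.9 in SE/SE 3, and none in the other 3 libraries. Between them, chr12:29530382-29530723 had a peak in all libraries, with signal values of 121, 78.1 and 25.2 in wild type and 152, 182 and 273 in SE/SE.

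The strongest Myt1l region lay deep inside the gene. This region, at chr12:29701849-29702252, 174468 bp from the lower gene end, had signal values of 346, 442 and 224 in wild type 1 to 3 (percentiles 58.7, 63.4 and 48.4) and 456, 570 and 590 in SE/SE 1 to 3 (63.2, 67.1 and 68.5). The second, at chr12:29723691-29724097, had 120, 202 and 144 in wild type and 240, 326 and 269 in SE/SE (percentiles 35.3 to 47.0 and 49.7 to 56.0). Both had a peak in 6 of 6 libraries.

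Further towards the upper end of Myt1l were a pair of neighbouring regions shared by all libraries and an SE/SE-only region. At chr12:29882887-29883205 the signal values were 74.6, 142 and 42.7 in wild type and 212, 329 and 324 in SE/SE (percentiles 13.4 to 39.0 and 46.9 to 56.6). At chr12:29883315-29883512 they were 47.4, 66.0 and 20.3 in wild type and 169, 193 and 167 in SE/SE. The wild type 3 peak there, close to the lowest listed value of 20, stood at percentile 0.233 of its list. The SE/SE-only region, chr12:29872534-29872680, had a signal of 46.7, 39.4 and 64.0 (percentiles 14.1, 10.9 and 20.4). It overlapped a joint wild-type peak with a signal value of 653 (percentile 61.7) and a joint SE/SE peak with 1272 (71.0). A region at chr12:29676062-29676202 was listed in SE/SE 1 and 3 only, and one at chr12:29526484-29526601, before the gene, in SE/SE 2 only, at percentiles of 0.828 to 14.3.

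St18 had 0 peaks within 1 kb of either gene end in the 6 libraries and in the joint lists no summit nearer than 1723 bp. Its regions lay 45.7 kb before the lower-coordinate end of the gene (ID 240690, chr1:6487231-6860940) and between 242 and 274 kb inside it. The outer region, chr1:6441015-6441719, had signal values of 723, 816 and 562 in wild type 1 to 3 (percentiles 76.2, 76.9 and 69.8) and 925, 1140 and 1070 in SE/SE 1 to 3 (78.4, 81.2 and 80.7). It was a strong region in every library.

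Inside St18, chr1:6729222-6730126 had signal values of 468, 720 and 350 in wild type 1 to 3 (percentiles 65.7, 73.8 and 58.3) and 971, 1216 and 1332 in SE/SE 1 to 3 (79.5, 82.6 and 85.4). Its wild-type percentiles were below those of the outer region in the same library and its SE/SE percentiles above them. The region at chr1:6734670-6735072 had 402, 464 and 290 in wild type and 571, 616 and 638 in SE/SE (percentiles 54.1 to 64.5 and 67.9 to 70.1). The weakest shared St18 region, chr1:6760544-6760883, had 151, 192 and 40.3 in wild type and 159, 223 and 182 in SE/SE, and the wild type 3 value, at percentile 12.3, lay apart from the other 5 libraries at 40.4 to 47.8. The SE/SE-only St18 region, chr1:6734037-6734184, had a signal of 60.2, 107 and 44.3 (percentiles 19.1, 31.3 and 13.1), and it lay in a peak of each joint list (percentiles 74.4 in wild type and 78.8 in SE/SE).

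Klf7 was second to Insm1 in the strength of its strongest region. The gene (ID 93691, chr1:64029448-64122345) lies on the minus strand, and a 1454 bp region at chr1:64121177-64122630 covers both its upper-coordinate end and the listed start, whose window is printed above. The signal values were 2102, 2374 and 2059 in wild type 1 to 3 (percentiles 97.6, 97.4 and 97.6) and 2704, 3144 and 3138 in SE/SE 1 to 3 (97.9, 98.2 and 98.4).

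Inside Klf7, chr1:64078739-64079260 had signal values of 584, 716 and 461 in wild type (percentiles 64.8 to 73.7) and 828, 998 and 962 in SE/SE (75.8 to 78.4). Beside it, chr1:64078025-64078570 was listed in wild type 1 with 56.8 and in SE/SE 1 to 3 with 37.2, 110 and 259. Also inside the gene, chr1:64066830-64067256, had 365, 496 and 301 in wild type and 650, 693 and 698 in SE/SE. Outside the gene, shared regions lay 35013 bp beyond the lower end (chr1:63994345-63994534, percentiles 15.6 to 36.6) and 69471 bp beyond the upper end (chr1:64191582-64191986, percentiles 35.7 to 63.0). The former was the weakest shared Klf7 region, with 46.6, 101 and 51.6 in wild type and 134, 88.6 and 114 in SE/SE. The 4 remaining regions of Klf7 had a peak in 1 to 3 SE/SE libraries, and only the one at chr1:64196043-64196474 also had one in a wild-type library, wild type 2, with a signal value of 43.8 against 105, 131 and 78.4 in SE/SE.

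**Figure D2:**
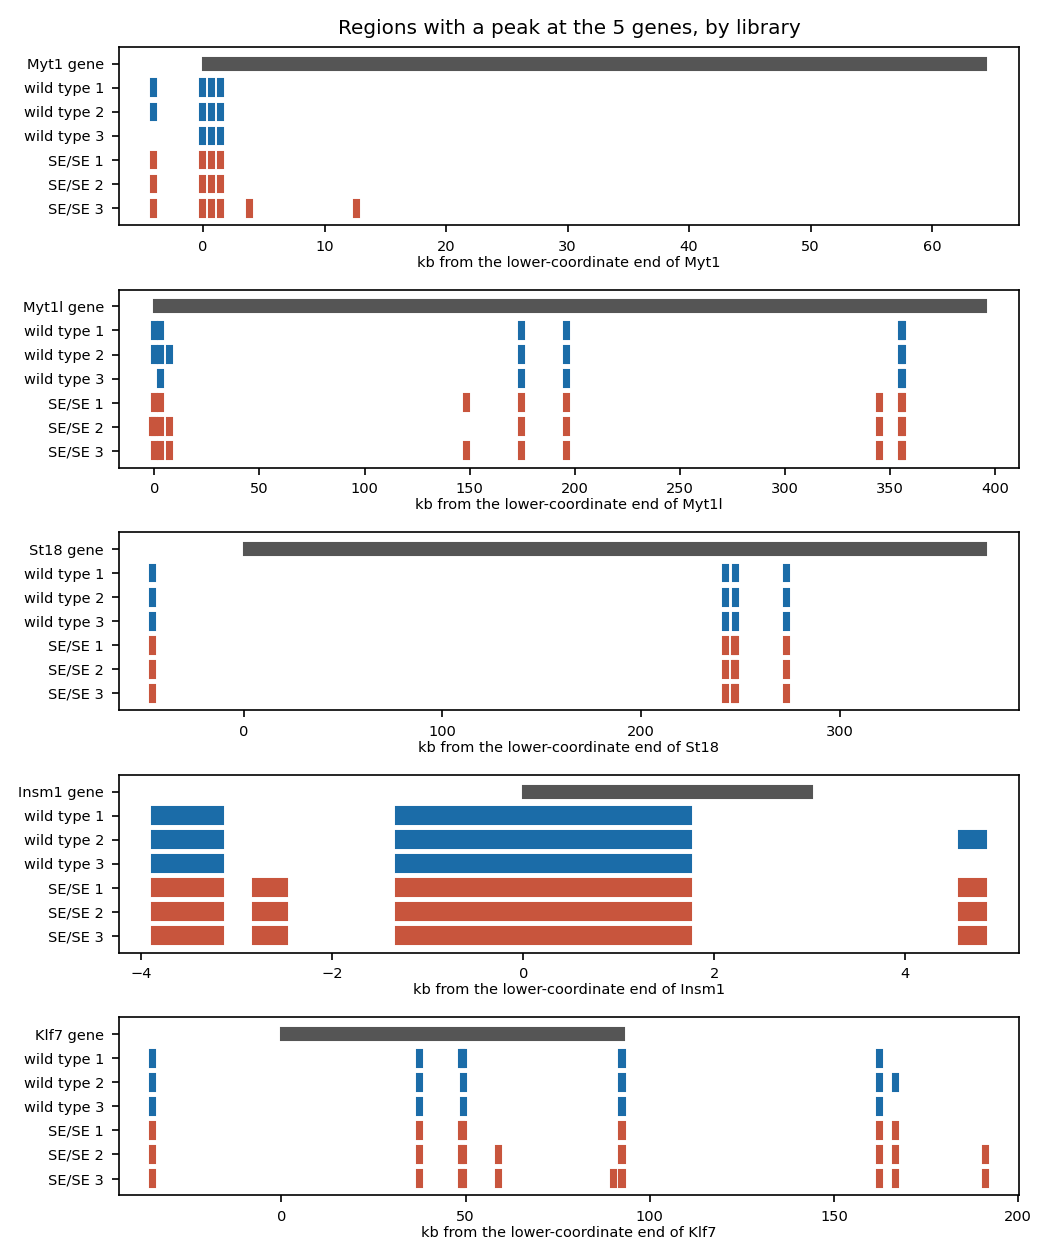
Regions with a peak at each gene (coloured boxes; blue wild type, red SE/SE) by library (rows) against the distance in kb from the gene's lower-coordinate end (grey bar: the gene), each box spanning the merged region and drawn with a minimum width so that it can be seen, which makes close regions run together. The shared regions of Myt1 sit at the left end of the gene, those of St18 away from both ends, and the widest region is that of Insm1.

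The limit of 100 kb fell between neighbouring regions at Klf7. The outermost Klf7 region inside that distance, 98.3 kb from the gene, had a peak in 2 SE/SE libraries, and the next one outside it, chr1:64226273-64226552 at 104076 bp, had a peak in 6 of 6. For Myt1l the nearest region outside it lay 159 kb from the gene (chr12:29368043-29369118, in 6 of 6 libraries).

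The genotypes were compared to ask whether accessibility at these genes differed between wild-type and SE/SE retinas. More of the 35 regions had a peak in SE/SE libraries, 28, 31 and 34 in SE/SE 1 to 3, than in wild type, 22, 24 and 19 in wild type 1 to 3. The means were 31.0 ± 3.0 and 21.7 ± 2.52 (SD, n = 3 each), a difference of 9.33 regions in which the groups did not overlap (exact two-sided permutation p = 0.1, the smallest that 3 against 3 can give). The ratio of SE/SE to wild type was 1.43 over these regions and 1.42 over all 46780. The 5 genes thus moved as the lists did as a whole.

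By gene, SE/SE exceeded wild type by 3.0 regions at Klf7, 2.67 at Myt1l, 1.67 at Insm1, 1.0 at St18 and 1.0 at Myt1. The groups did not overlap at Klf7, Myt1l, Insm1 and St18 (exact permutation p = 0.1, adjusted p = 0.125 over the 5 genes), where 17.8% of the 15847 genes with a region, and 43.1% of the 3252 genes with 4 to 10 regions, as these have, were higher in every SE/SE library. They overlapped at Myt1 (exact permutation p = 0.6), where wild type 1 and 2 and SE/SE 1 and 2 each had 4 regions. With 3 libraries per group, no difference could reach a p below 0.1. The separation ended, and the difference moved by over 1.5 times, at Klf7 with peaks of at least 2 times the lowest signal (1.33 regions, exact permutation p = 0.3) or gene ends within 50 kb or all gene types competing (1.67 each, p = 0.2), and at Insm1 with regions merged from all 8 lists (0.667, p = 0.4). It ended with smaller moves at Klf7 with all 8 lists (2.33), at Insm1 with 50% of a region covered (1.33) and at Myt1l with the stricter signal (2.33), each with an exact permutation p = 0.2, and the Myt1 difference was 0.333 without SE/SE 3.

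The difference was smaller at equal list length. With the 27873 strongest peaks of each library, the number in the shortest list, the 5 genes had 22, 22 and 19 regions with a peak in wild type 1 to 3 and 22, 22 and 21 in SE/SE 1 to 3, a difference of 0.667 (exact permutation p = 1.0). Over all 31360 regions of this setting, the means were 27515 in SE/SE and 26041 in wild type, without overlap (exact permutation p = 0.1). Each library gave 27873 peaks, so its count of regions fell below that number only where several of its peaks shared a region. The difference over all regions thus does not show more accessible DNA in SE/SE. By gene, the difference of SE/SE minus wild type was 0.333 at Myt1, -0.667 at Myt1l, 0 at St18 and 0 at Klf7. At Insm1 alone the groups did not overlap, with 3 regions in each SE/SE and 2 in each wild-type library (exact permutation p = 0.1). Of all genes with a region under this setting, 2.16% were higher in every SE/SE library, and of those with 3 to 7 regions, as the 5 genes have here, 4.91% were. The Insm1 region that made this difference was chr2:146226567-146226844, beyond the upper gene end, which then had a peak in 3 of 3 SE/SE and 0 of 3 wild-type libraries. It was 1 of 433 such regions among 31360 under this setting (1.38%), and the only one among the 25 of the 5 genes. At 0 of the 25, all 3 wild-type and no SE/SE libraries had a peak (0.312% of all). The 3 SE/SE-only regions of the full lists had no peak in this setting.

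**Figure D3:**
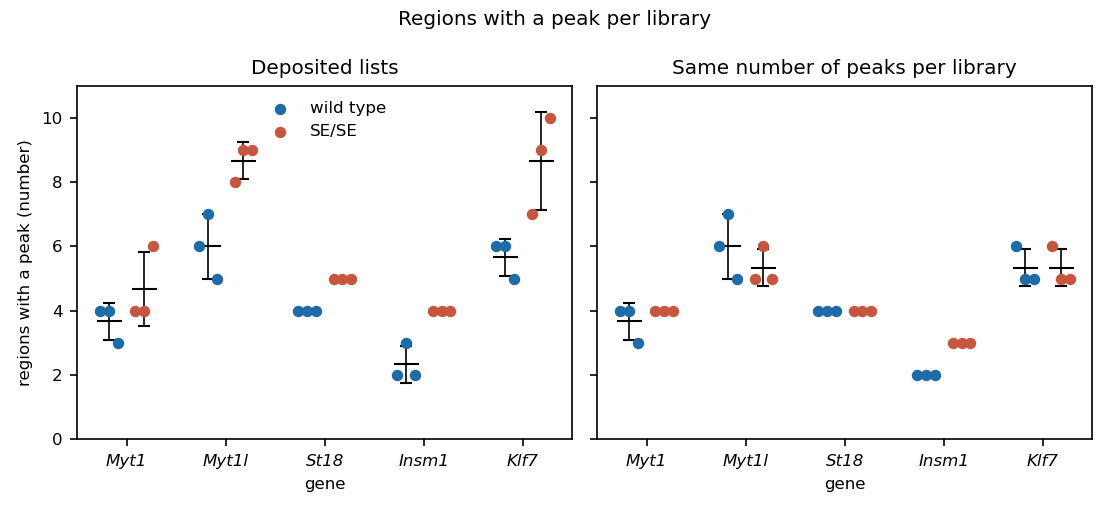
Number of regions with a peak at each gene in each library (points; blue wild type, red SE/SE), with the mean (dash) and SD (bar) of 3 libraries, from the deposited lists (left) and from the 27873 strongest peaks of each library (right). On the left SE/SE lies above wild type without overlap at 4 of 5 genes (43.1% of genes with 4 to 10 regions), and on the right at Insm1 only (4.91% of genes with 3 to 7 regions).

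To compare strength, each library's signal values were ranked over the same 24370 regions, those found in 6 of 6 libraries. This ranking was chosen after the data were seen. All SE/SE libraries ranked above all wild-type libraries at 4 of the 19 shared regions of the 5 genes (12.3% of all 24370 did), and at 0 of 19 all SE/SE libraries ranked below (18.6% of all). Both shared regions of Insm1 were among the 4, with 1 of 5 at Myt1l and 1 of 4 at St18, and none of the 3 at Myt1 or the 5 at Klf7. The median difference over the 19 was -0.015 percentile points, against -0.491 over all 24370.

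The Insm1 region before the gene, chr2:146218108-146218856, ranked at percentiles 57.0, 62.0 and 65.8 in wild type 1 to 3 and 69.6, 68.3 and 70.7 in SE/SE 1 to 3, a difference of 7.89 points. The Insm1 region over the lower gene end ranked at 99.4, 99.4 and 99.3 and at 99.7, 99.8 and 99.8, a difference of 0.408 points at the top of the scale. The inner St18 region, chr1:6729222-6730126, had the largest difference of the 19, 12.8 points, from 56.3, 62.8 and 52.8 in wild type to 67.2, 69.6 and 73.5 in SE/SE. At Myt1l, chr12:29882887-29883205 ranked at 10.7, 16.2 and 8.53 in wild type and 17.1, 24.2 and 22.4 in SE/SE, a difference of 9.43 points. Each of these 4 had an exact permutation p = 0.1 and an adjusted p = 0.475 over the 19 regions, so none passed.

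The start regions of Klf7 and Myt1 did not separate the genotypes. The Klf7 start region ranked at 96.9, 96.4 and 97.3 in wild type and 96.6, 96.8 and 97.1 in SE/SE, and that of Myt1 at 33.3, 33.2 and 35.4 and at 28.2, 38.6 and 34.1 (exact permutation p = 1.0 for each). The most negative difference, -10.1 points, was at chr1:6760544-6760883 in St18, where wild type 3, at 7.69, lay among the SE/SE values of 9.68, 11.99 and 6.37 and apart from 26.2 and 24.4 in wild type 1 and 2.

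**Figure D4:**
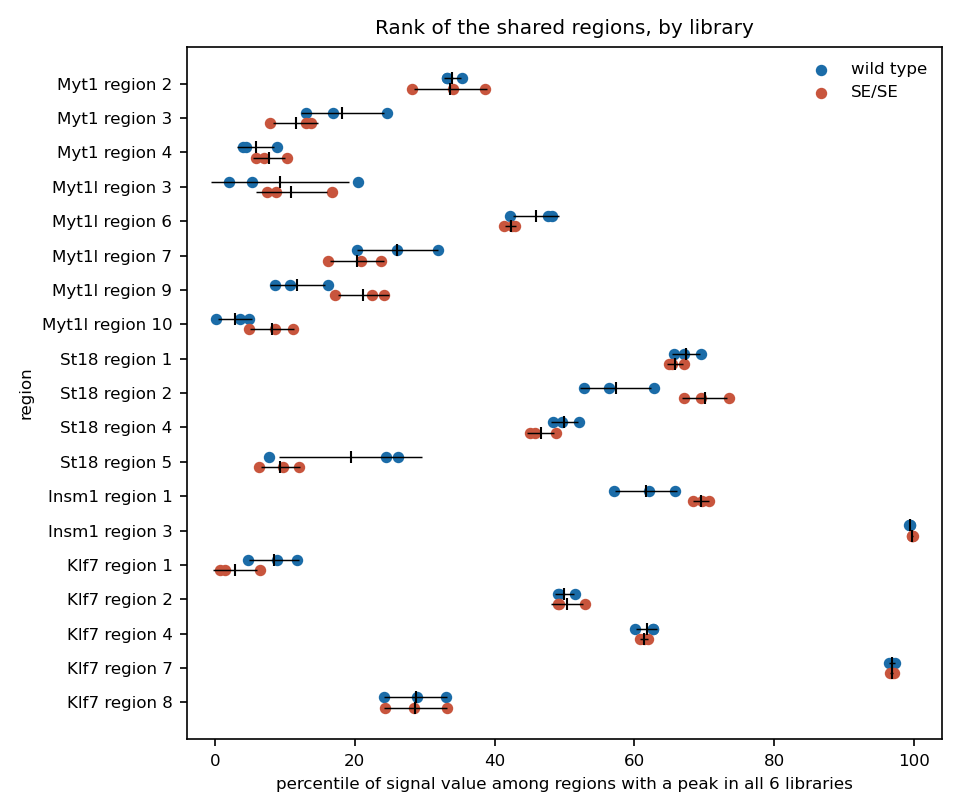
Percentile of the signal value over the 24370 regions found in 6 of 6 libraries (x axis) for the 19 shared regions of the 5 genes (rows), one point per library (blue wild type, red SE/SE), with the mean (tick) and SD (line) of 3 libraries. The groups do not overlap at region 9 of Myt1l, region 2 of St18 and regions 1 and 3 of Insm1, each with SE/SE above.

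The joint lists, 1 per genotype and without replicates, held more peaks at the 5 genes. The joint wild-type list had 80 and the joint SE/SE list 93, of which 49 (61.3%) and 62 (66.7%) overlapped no region of a library, against 60.5% and 66.0% of all joint peaks. All 35 regions overlapped a peak in both joint lists, and the share over all regions was not computed. Of the joint SE/SE peaks at the 5 genes, 20 (21.5%) had no joint wild-type peak, against 22.0% of all joint SE/SE peaks. Of the joint wild-type peaks, 5 (6.25%) had no joint SE/SE peak, against 6.28% of all. None of these 25 overlapped a region of a library. The share of all such joint peaks that overlap none was not computed, so this is not a result about the 5 genes.

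Most of the added joint peaks lay at Myt1l and Klf7. Myt1l had 35 joint wild-type and 41 joint SE/SE peaks and Klf7 27 and 30, against 10 regions of the libraries at each. Of those at Myt1l without a library peak, the 2 highest by percentile were both in the SE/SE list and inside the gene: chr12:29837355-29837786, with an authors' signal value of 820 (percentile 62.5), and chr12:29789355-29789688, with 768 (61.1). Both also overlapped joint wild-type peaks, the highest with 448 (54.1) at the former and 413 (52.5) at the latter. Of those at Klf7, chr1:64193255-64193889 had 620 in wild type (60.6) and chr1:64097848-64098191 had 747 in SE/SE (60.5). Each overlapped a peak of the other joint list. At St18, chr1:6752236-6752466 had 533 in wild type (57.5) and nearly the same interval had 657 in SE/SE (57.9). Insm1 had 3 joint wild-type and 5 joint SE/SE peaks, and the additional 2 in SE/SE were weak, with signal values of 56.0 and 40.2 (percentiles 13.0 and 8.42). Myt1 had 7 and 8, and its highest joint peaks without a library peak were chr2:181823228-181823448, with 232 (37.2), and chr2:181795915-181796120, with 196 (34.1), both in SE/SE. Of the 9 listed start windows of Myt1, Myt1l and Klf7, 8 overlapped a joint wild-type peak and 9 a joint SE/SE peak, and the exception was the first Myt1l start printed above. The shares over all listed windows were not computed.

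Other genes of the same pathways were mostly open at a gene end in every library. Such a peak, at most 1 kb from either end, was present in 6 of 6 libraries for 55.6% of all 21887 protein-coding genes, and for 3 of the 5 members (Myt1, Insm1 and Klf7). A list of 13 genes held partner corepressors and also the repressor genes Rest, Gfi1 and Gfi1b. Gfi1 and Gfi1b did not have such a peak in 6 of 6 libraries. It was present in 6 of 6 for the other 11 of the 13. Among these were Kdm1a, Rcor1, Hdac1 and Hdac2, whose products INSM1 recruits, and Sin3b, whose product binds MYT1. A peak at a gene end in 6 of 6 libraries was also present for 12 of 16 other Klf genes and 16 of 17 other zinc finger genes of neurons. The Insm1 relative Insm2 was among the latter. So it was for 8 of 8 proneural and neuronal genes and 13 of 14 Notch pathway genes. The exception among the 17 was Fezf1, a forebrain zinc finger gene, with such a peak in 3 SE/SE and 0 wild-type libraries; it was named after its values were seen.

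Among genes with any region, 17.4% of 15847 had an SE/SE-only region and 0.0757% a wild-type-only one. Of the members, 3 of 5 had an SE/SE-only region (Myt1l, St18 and Insm1). An SE/SE-only region was found at 2 of 12 genes of the corepressor list, Gse1 and Gfi1. So it was at 5 of 15 Klf genes, 5 of 17 other zinc finger genes, 4 of 8 proneural and neuronal genes and 2 of 14 Notch genes. A gene with more regions has more chances to hold one, so these counts of genes cannot be set directly against 17.4%. By region, the SE/SE-only share was 10.6%, 12.3%, 6.90%, 9.62% and 3.85% in these lists, in the same order. It was 8.57% at the members and 8.23% over all regions. Gse1, a corepressor gene with 63 regions, had 9 of the 10 of its list. The only wild-type-only regions in these 5 lists were the 2 of Atoh7, in the proneural list. Atoh7 is the gene whose shadow enhancer is mutated in SE/SE, and the place of these regions relative to that enhancer is not given here.

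Over the 6 libraries, the share of a gene's regions with a peak was compared between each member with 5 or more regions and all genes with at least as many. The closest to Klf7 were Tcte2 and Unc5b, at mean absolute differences of 2.22 and 2.69 percentage points among 582 genes. Cstad and Mxi1 were closest to Myt1l (1.67 points, tied with 2 more), and Adamts1 and Adamts4 to Myt1 (2.78 points, 12 genes tied). For St18, 11 of 2532 genes had the same shares, among them Acbd3 and Dand5, chosen in alphabetical order. Insm1, with 4 regions, was not compared.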

How the data were processed

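The authors deposited narrowPeak lists, 1 per library and 1 joint list per genotype. Per the submitters' processing notes, cutadapt, BWA, Genrich 0.5, bedtools 2.27.0, limma and GRCm38 were used, with no role or order. Trimming, filtering, any shift of reads for the transposase and the joining of replicates are not stated in those notes. The values deposited for a peak are a signal, a score capped at 1000 and −log10 p-values. The lowest deposited signal was just above 20 in all 8 lists, and no scaling between lists is known.

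Peaks sharing 1 bp or more were merged into regions (positions count from 1), and the highest signal of a library in a region was used. Values per library were compared by exact two-sided permutation over the 20 assignments, with Benjamini-Hochberg adjustment. The 5 genes, the related lists and the tests were chosen with earlier results of these data known. By rule, the text names every genotype-specific region, the one at or nearest each start, the 2 with the highest median percentile and the lowest of those in 6 of 6 libraries per gene, any found in more wild-type libraries, the 2 highest joint peaks per gene without a library peak, and the 2 genes most like each member with 5 or more regions, ties in alphabetical order. Other regions were named after their values were seen. Of 18 zinc finger entries, 17 matched (Zfp238 did not). Motifs were searched on both strands of the 250 bases before each RefSeq start. Python 3.11.15, numpy 2.4.6, pandas 2.3.3, scipy 1.17.1 and matplotlib 3.10.9 were used, and the merging, assignment and tests were tested on simulated data. Alternatives covered the signal threshold, list length, overlap, region definition, gene distance, competing genes, the measure ranked and each library left out.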

Additional observations from a re-analysis of the deposited data

How the results depend on the processing

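Of 149 alternative values, 139 kept the direction of a difference, or a count within 1.5 times. Some of these could not change, since the replicate block below alters only the p-value. Leaving out summits inside another gene gave the main values throughout, and most alternatives kept the unequal list length. The sizes of the differences by gene are in the genotype comparison. With the 27873 strongest peaks of each library, the number of SE/SE-only regions was 1 instead of 3, the Myt1l difference turned to -0.667 regions, and those of St18 and Klf7 became 0 and 0. The median percentile of the shared regions was 13.96 points higher in SE/SE in the deposited lists, -1.10 at equal list length and -0.204 when ranked over regions found in 6 of 6 libraries, an alternative chosen after seeing the data. Both of these alternatives remove the unequal list length by construction. Requiring 50% of a region to be covered gave 5 SE/SE-only regions. Leaving out 1 library at a time gave 3 to 5, and leaving out wild type 2 and SE/SE 1 together, also chosen after seeing the data, gave 8, where fewer libraries had to lack or hold a peak. With the replicate number as a block, the difference over the 5 genes was 9.33 regions with an exact sign-flip p = 0.25, the smallest that 3 pairs can give. The labels do not say whether same-numbered libraries belong together, and the main tests treated them as unpaired. Deviations of same-numbered libraries correlated at -0.00917, 0.0425 and -0.123, and not every library correlated best with its own number. With 3 libraries per genotype, these values cannot decide whether the libraries were paired. The deposited lists carry no read counts, so depth could not be set against any of these values.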
